A study of Mus musculus with 24 samples.

Results

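The oxidative phosphorylation genes of the mouse ear were taken as the rows of the count table whose gene symbol starts with Nduf, Uqcr, Atp5, Cox4, Cox5, Cox6, Cox7 or Cox8, or is Sdha, Sdhb, Sdhc or Sdhd, without symbols that hold -ps. This gave 97 of the 51912 genes in the table. They were 36 complex I subunits, 8 complex I assembly factors (the Ndufaf genes), 4 complex II genes, 8 complex III genes, 17 complex IV genes, 17 complex V genes, the 3 muscle isoforms of complex IV (Cox6a2, Cox7a1 and Cox8b) and 4 rows annotated as pseudogenes. Ndufa4 and Ndufa4l2 carry complex I names and were counted with complex IV, because the NDUFA4 protein is a complex IV subunit. Of the 97, 93 passed the filter on low counts. The other 4 were Cox7b2 and Cox8c, which had no count in any library, and the pseudogene rows Ndufa11b and Ndufs6b.

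The samples were whole ears of C57BL/6 mice in 4 groups of 6: E138A at day 5, wild type at day 5, E138A at 1 month and wild type at 1 month. E138A mice carry a Card14 knock-in with a lox-stop-lox cassette, in which tamoxifen turns on CreERT2 and so the psoriasis-associated E138A form of CARD14 at its own locus. All 4 groups, wild type included, were given tamoxifen by intraperitoneal injection on 3 days in a row, and time was counted from the first injection. The promoter that drives CreERT2 and the age and sex of the mice are not given in the sources used here, and no label states whether the 6 ears of a group belong to 6 different mice. A p-value here thus covers the spread among the libraries only, which may be technical.

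Oxidative phosphorylation makes ATP at the inner mitochondrial membrane. Complex I takes electrons from NADH and complex II from succinate. Coenzyme Q carries them to complex III and cytochrome c to complex IV, which passes them to oxygen, while complexes I, III and IV pump protons that complex V, the ATP synthase, uses to make ATP. Most subunits are encoded in the nucleus, and a small core is encoded by mitochondrial DNA. Some complex IV subunits exist as pairs of isoforms, 1 found in most tissues and 1 in heart and skeletal muscle. The whole ear holds epidermis, dermis, fat, cartilage and some striated muscle, so a level here is a sum over those tissues, in which fewer cells of a type and less RNA per cell cannot be told apart.

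Libraries held 16803680 to 18852963 counts in E138A and 15661515 to 16998900 in wild-type ears at day 5, and 20608274 to 23022149 in E138A and 19255028 to 23904976 in wild-type ears at 1 month. Card14 itself was read at 35.1 to 65.4 CPM (counts per 1000000 counts of the TMM-scaled library) in E138A and 34.6 to 54.2 CPM in wild-type ears at day 5. At 1 month it was read at 9.93 to 25.3 CPM in E138A and 32.9 to 49.9 CPM in wild-type ears (log2 fold change -1.49 ± 0.20, SE, adjusted p = 1.6e-06, edgeR). The counts do not separate the alleles, so they do not check the genotype. Markers of skeletal muscle (18 genes) summed to 2875 to 5920.1 CPM in E138A and 6605 to 9279 CPM in wild-type ears at day 5, and to 1327 to 6692 CPM in E138A and 8627 to 31430.3 CPM in wild-type ears at 1 month. White adipocyte markers (8 genes) were also lower in E138A ears, with sums of 243 to 380.4 CPM against 571 to 1331 CPM at 1 month, and neutrophil markers were higher, with sums of 3219 to 7136 CPM in E138A against 29.3 to 75.7 CPM in wild-type ears at that time. Keratinocyte markers summed to 29168 to 39117 CPM in E138A and 24621 to 33840.3 CPM in wild-type ears at day 5, which overlapped, and to 32286 to 51720.0 CPM in E138A and 17370.1 to 30289 CPM in wild-type ears at 1 month, which did not. Fibroblast markers summed to 5000.4 to 9684 CPM in E138A and 13201 to 18238 CPM in wild-type ears at day 5, with no overlap. At 1 month they summed to 11501 to 32175 CPM in E138A and 8240.0 to 13264 CPM in wild-type ears, higher in E138A on average but overlapping. The genes in these sums did not all move alike. At 1 month 3 of 6 keratinocyte markers were called higher and 1 lower, and 5 of 6 fibroblast markers higher and 1 lower. Of all tested genes 25.5% were called higher and 21.5% lower at that time. The libraries of 1 month fell apart by base composition. In 3 of 6 E138A libraries (numbers 1, 2 and 6) and 4 of 6 wild-type libraries (numbers 2 to 5) genes rich in G and C were over-read relative to the mean of all libraries, and in the other 5 under-read. The counts of members called at 1 month and the values of most members named there are given within each of these sets too.

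Promoter windows were available for 74 of the 97 members, in RefSeq's GRCm38.p6, as 300 bases from 250 before to 50 after the gene's start in RefSeq. That start can differ from the gene coordinates printed below, which are GENCODE's, and it does so for Ndufa4. Windows are printed for Ndufa4 and Ndufaf4, the respiratory subunit gene and the assembly factor gene that rose most at day 5, and for Cox7a1 and Cox8b, muscle isoforms that fell at 1 month. Each is written 5′ to 3′ along the gene's strand, and capitals mark matches to the NRF1 core GCATGCGC or to the E-box CAGCTG on either strand.
Ndufa4 (chr6:11907401-11907700, minus strand): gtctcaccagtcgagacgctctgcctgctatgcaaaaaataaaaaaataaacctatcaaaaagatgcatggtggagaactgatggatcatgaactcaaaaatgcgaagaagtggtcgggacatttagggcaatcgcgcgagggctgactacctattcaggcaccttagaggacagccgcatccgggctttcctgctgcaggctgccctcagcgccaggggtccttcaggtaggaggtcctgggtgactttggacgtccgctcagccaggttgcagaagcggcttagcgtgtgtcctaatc
Ndufaf4 (chr4:24897833-24898132, plus strand): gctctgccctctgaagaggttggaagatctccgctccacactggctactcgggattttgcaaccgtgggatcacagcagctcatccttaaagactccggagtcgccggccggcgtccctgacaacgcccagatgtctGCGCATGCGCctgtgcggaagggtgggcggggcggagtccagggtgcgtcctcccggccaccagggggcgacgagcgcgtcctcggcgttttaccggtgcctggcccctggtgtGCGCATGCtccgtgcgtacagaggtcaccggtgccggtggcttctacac
Cox7a1 (chr7:30183921-30184220, plus strand): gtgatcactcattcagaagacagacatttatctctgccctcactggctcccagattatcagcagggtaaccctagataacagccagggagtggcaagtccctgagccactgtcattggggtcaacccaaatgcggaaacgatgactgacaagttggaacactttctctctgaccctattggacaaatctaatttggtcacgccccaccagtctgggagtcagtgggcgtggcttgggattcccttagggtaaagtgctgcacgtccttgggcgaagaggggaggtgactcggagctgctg
Cox8b (chr7:140900397-140900696, minus strand): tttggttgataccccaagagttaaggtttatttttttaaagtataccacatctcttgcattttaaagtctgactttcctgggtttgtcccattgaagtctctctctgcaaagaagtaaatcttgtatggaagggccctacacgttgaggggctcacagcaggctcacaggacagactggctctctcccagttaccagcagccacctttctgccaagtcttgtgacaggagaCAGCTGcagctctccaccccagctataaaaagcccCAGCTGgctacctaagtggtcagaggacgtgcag

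NRF1 is a transcription factor known for binding the promoters of nuclear genes for respiratory subunits. Its core was found in 12 of 74 member windows (16.2%), and in 585 of 12301 windows of tested genes (4.76%). Ndufaf4 held it at 2 overlapping places on opposite strands upstream and again just after its start, and Ndufa4 did not hold it. The site AAGGTCA of the estrogen-related receptors, which also act on mitochondrial genes, was in 8 member windows (10.8%) and in 3.28% of tested windows. CCGGAAGT, read by ETS factors, was in 5 member windows (6.76%) and in 7.25% of tested windows. CAGCTG, an E-box letter pattern bound by myogenic factors among others, was in 6 member windows (8.11%) and 15.7% of tested windows, and Cox8b held it at 2 places around its start. An NF-κB motif was in 1 member window (1.35%) and in 5.18% of tested windows. These are matches of letters in a fixed window.

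At day 5 members of each of complexes I to V were called higher in E138A ears. Of the 93 tested members 31 rose and 1, Cox4i2, fell at an adjusted p below 0.05 (edgeR), where 20.7% of all 17287 tested genes were called higher and 20.2% lower (40.9% in all). The median log2 fold change of the members was 0.37, and that of all tested genes was -0.02. In 47 members every E138A library was above every wild-type library, as in 17.9% of all tested genes, and in 1, Cox4i2, every one was below, as in 16.4%. Complexes I to V without the muscle isoforms took 0.861 ± 0.0391% of all counts in E138A and 0.672 ± 0.0324% in wild-type libraries (SD, n = 6 each). The members are short, with a median annotated length of 861 bases against 2794 for the other tested genes, and E138A libraries of day 5 read short genes more than wild-type libraries did. With an offset that takes out each library's dependence on GC content and length, 19 members were higher and 7 lower at day 5 and their median was 0.11. Of all 17287 tested genes 4541 were higher and 4132 lower with that offset. Other settings raised the count of members called higher, to 71 with only the libraries compared, 71 with limma voom, 66 with GC correlation as a covariate and 72 with muscle marker level as a covariate. Limma voom called 5688 of all tested genes higher. For the fits with only the libraries compared, GC correlation or muscle level, the counts over all tested genes are not given here. The larger counts of members in those fits are thus not read as a result about the members. The muscle marker level (mean log2 CPM) at day 5 was 6.62 to 7.69 in E138A and 7.89 to 8.38 in wild-type libraries. These did not overlap, so muscle level and genotype cannot be told apart in the fit with muscle level as a covariate. In the same comparison the markers of neutrophils rose in 5 of 5 genes, those of skeletal muscle fell in 9 of 18, and those of fibroblasts fell in 3 of 6 and rose in 1. The part of the neutrophil and fibroblast markers in the members' values was not tested.

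Complex I, the entry point for NADH, had 6 of 36 subunits that rose at day 5 (16.7%, below the 20.7% of all tested genes) and a median log2 fold change of 0.32. In 15 subunits every E138A library was above every wild-type library, as in 17.9% of all tested genes. The value was above 0 in 33 subunits, as in 8331 of all 17287 tested genes. Limma voom called 28 subunits higher and 1 lower, and 5688 of all tested genes higher and 6005 lower. Ndufb6, a small membrane-arm subunit, was read at 36.2 to 46.0 CPM (median 42.9) in E138A and 23.2 to 27.9 CPM (median 26.5) in wild-type ears. The 2 groups did not overlap, and the log2 fold change was 0.69 ± 0.17 (SE, adjusted p = 0.0023). Ndufb5 (0.48 ± 0.12, adjusted p = 0.0026), Ndufa1 (0.51 ± 0.14, adjusted p = 0.0062), Ndufc2 (0.54 ± 0.18), Ndufb7 (0.49 ± 0.19) and Ndufab1 (0.32 ± 0.12), the mitochondrial acyl carrier protein, rose as well. Over 19 other settings Ndufb6 kept its call in 18, Ndufb5 in 17 and Ndufa1 in 17. Their lowest log2 fold changes there were 0.31 for Ndufb6, 0.22 for Ndufb5 and 0.0089 for Ndufa1. Ndufv1, which binds flavin, and Ndufs1, which binds iron-sulfur clusters, did not pass the test, with 0.32 for Ndufv1 and 0.15 for Ndufs1. With the GC and length offset 4 complex I subunits were higher and 1 lower, with a median of 0.10, where 4541 of all tested genes were higher and 4132 lower.

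Among the complex I assembly factors 3 of 8 rose at day 5 (37.5%, against 20.7% of all tested genes). Ndufaf4, which helps build complex I, lay at 22.4 to 35.4 CPM (median 29.7) in E138A and 13.3 to 16.7 CPM (median 14.6) in wild-type ears. No library of 1 group reached the other, and the log2 fold change was 1.01 ± 0.24 (adjusted p = 0.0017). Its annotated length is 3632 bases, and the value with the GC and length offset was 1.04 (adjusted p = 9.4e-06). Ndufaf2 rose by 0.49 ± 0.13 and Ndufaf5 by 0.60 ± 0.17 on the log2 scale, and with the offset Ndufaf2 lay at 0.10 (adjusted p = 0.42).

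Complex II, succinate dehydrogenase, is shared with the citric acid cycle, and 1 of its 4 genes rose (25%, near the 20.7% of all tested genes). Sdhd, the smaller membrane anchor (ENSMUSG00000000171, GRCm38 chromosome 9, 50596357 to 50603812), was read at 79.0 to 115 CPM (median 100.2) in E138A and 53.5 to 60.2 CPM (median 54.5) in wild-type ears at day 5. These ranges did not overlap (log2 fold change 0.81 ± 0.16, adjusted p = 2.8e-04). The flavoprotein gene Sdha did not pass the test, at 207 ± 6.97 CPM in E138A and 204 ± 5.63 CPM in wild-type ears (SD, n = 6 each, log2 fold change 0.02 ± 0.10, adjusted p = 0.88). Sdhb, the iron-sulfur subunit, had 0.35 ± 0.23 and Sdhc, the other anchor, 0.16 ± 0.19, and neither passed the test.

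In complex III, which hands electrons to cytochrome c, 4 of 8 genes rose (50%, against 20.7% of all tested genes) and the median was 0.47. Uqcr10, a small subunit, was read at 60.1 to 82.2 CPM (median 67.0) in E138A and 35.7 to 46.0 CPM (median 38.2) in wild-type ears, with no overlap and a log2 fold change of 0.81 ± 0.21 (adjusted p = 0.0032). Uqcrfs1, the Rieske iron-sulfur protein, rose by 0.62 ± 0.17 (adjusted p = 0.0059), Uqcrh, the hinge protein, by 0.44 ± 0.16, and the core protein gene Uqcrc2 by 0.40 ± 0.12 on the log2 scale. The other core protein gene, Uqcrc1, had 0.32 ± 0.19 (adjusted p = 0.19). With the GC and length offset 3 complex III genes were higher and 0 lower, where 4541 of all tested genes were higher and 4132 lower.

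Complex IV, cytochrome c oxidase, held the member that rose most. Ndufa4 (ENSMUSG00000029632, GRCm38 chromosome 6, 11900292 to 11907497, minus strand) was read at 173 to 231 CPM (median 201) in E138A and 89.1 to 102 CPM (median 95.1) in wild-type ears at day 5. The lowest E138A library was well above the highest wild-type library, and the log2 fold change was 1.09 ± 0.14 (adjusted p = 1.5e-06). With the GC and length offset it was 0.62 (adjusted p = 2.6e-04). In all, 9 of 15 tested complex IV genes rose (60%, against 20.7% of all tested genes) and the median was 0.49. Cox6b1, which lies at the contact of the oxidase dimer, rose by 0.65 ± 0.19 (adjusted p = 0.0081), Cox6a1, the widely expressed partner of Cox6a2, by 0.59 ± 0.21, Cox5a by 0.57 ± 0.18 and Cox7c by 0.52 ± 0.16. Of these Cox6a1 kept its call in 18 of 24 fits that each left out 1 library, with an adjusted p of at most 0.061. Cox7a2, the widely expressed partner of Cox7a1, rose by 0.46 ± 0.15 and Cox8a, the partner of Cox8b, by 0.49 ± 0.17, and Cox7a2l, a factor of supercomplex assembly, had 0.02 ± 0.19 with an adjusted p of 0.96. Cox4i1, the common form of subunit 4, did not pass the test (0.36 ± 0.23, adjusted p = 0.23). Its lung isoform Cox4i2, a low-level gene known to respond to oxygen, fell. It was read at 1.03 to 2.35 CPM (median 1.64) in E138A and 2.68 to 4.11 CPM (median 3.68) in wild-type ears, groups that did not overlap, with a log2 fold change of -1.14 ± 0.30 (adjusted p = 0.0035). With the offset only 3 complex IV genes were higher and 2 lower, where 4541 of all 17287 tested genes were higher and 4132 lower. Cox7c was at 0.06 with it (adjusted p = 0.7).

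In complex V 8 of 17 genes rose (47.1%, against 20.7% of all tested genes) and the median was 0.44. Atp5mpl, a small proteolipid subunit (ENSMUSG00000021290, GRCm38 chromosome 12, 111961375 to 111966977), was read at 45.9 to 57.5 CPM (median 52.4) in E138A and 27.0 to 30.9 CPM (median 28.9) in wild-type ears. The groups stood apart, with a log2 fold change of 0.87 ± 0.14 (adjusted p = 3.3e-05). Atp5g3, 1 of the genes for the c subunit of the membrane ring, was read at 197 to 265 CPM (median 229.7) in E138A and 125 to 150.0 CPM (median 136) in wild-type ears, again with no overlap (0.74 ± 0.18, adjusted p = 0.0016). The other c subunit genes had 0.44 ± 0.22 for Atp5g1 and 0.38 ± 0.28 for Atp5g2, and neither passed the test. Atp5j, a stalk subunit, rose by 0.48 ± 0.12 (adjusted p = 0.0021). Atp5b, the catalytic beta subunit, rose by 0.54 ± 0.16 (adjusted p = 0.011), and Atp5a1, the alpha subunit, had 0.36 ± 0.16 (adjusted p = 0.069). With the GC and length offset 7 complex V genes were higher and 0 lower, where 4541 of all tested genes were higher and 4132 lower.

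**Figure D1:**
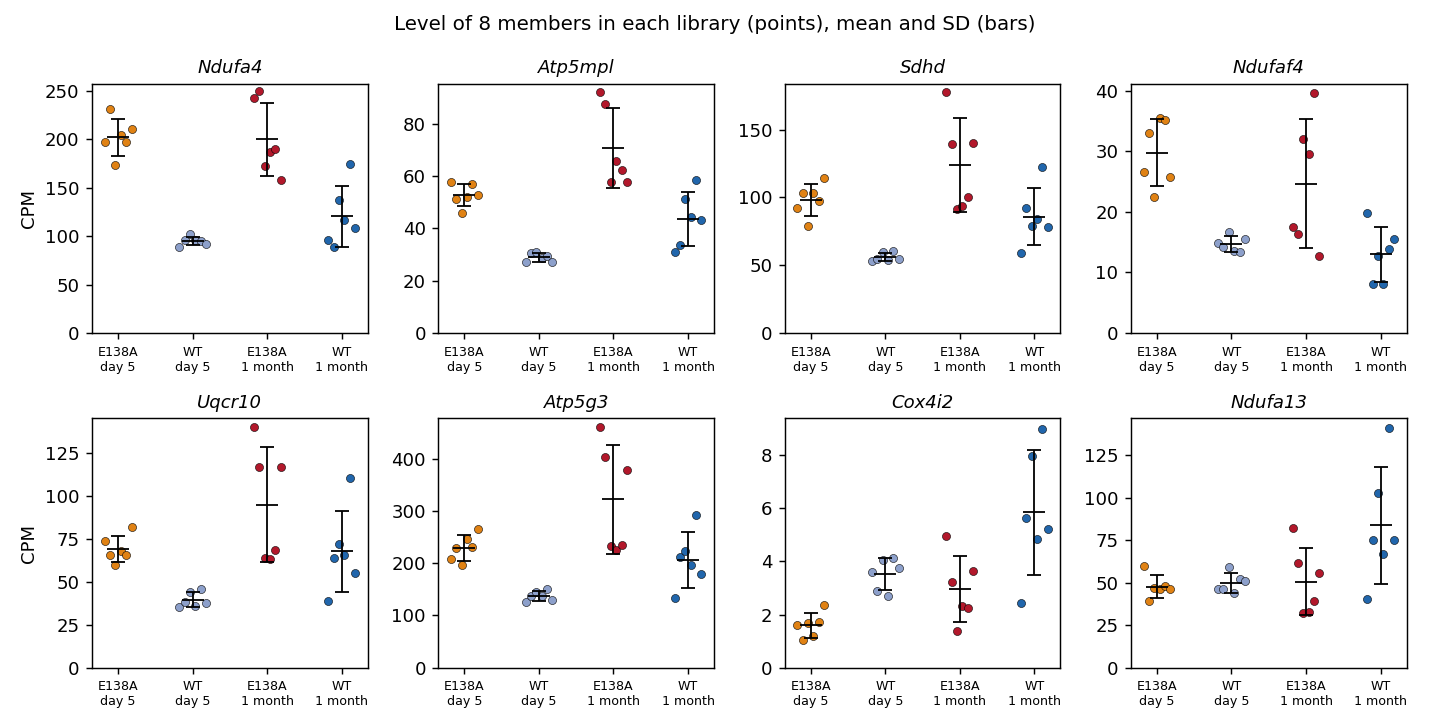
Level in CPM of 8 members in each of the 24 libraries (points), with the mean and SD of each group of 6, E138A left of wild type at each time. Ndufa4, Atp5mpl, Sdhd, Ndufaf4, Uqcr10 and Atp5g3 were higher in all E138A than in all wild-type libraries at day 5, Cox4i2 was lower in all of them, and the groups of 1 month overlap in each of the 8 genes.

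Per length of transcript the most abundant members in wild-type ears at day 5 were Atp5b, Cox4i1 and Atp5a1. Atp5b had 520.1 CPM per kilobase in E138A and 357.5 in wild-type ears at day 5, and 729 in E138A and 554 in wild-type ears at 1 month. Ndufa4 had 332 CPM per kilobase in E138A and 156 in wild-type ears at day 5, close to Atp5a1 in the E138A group (334) and below it in the wild-type group (260.5).

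At 1 month fewer members were higher, and all of them had also been called higher at day 5. In E138A ears 13 of 93 members were higher and 8 lower, where 25.5% of all tested genes were called higher and 21.5% lower (47.1% in all). The median of the members was 0.08, beside 0.05 for all tested genes, and it was -0.00 when libraries were scaled by total counts only. Libraries of E138A and wild type overlapped in every member but Ndufaf2, while 12.2% of all tested genes were higher and 9.05% lower with no overlap. The fit shares 1 estimate of a gene's spread over all 4 groups, which spread unequally. The summed CPM of complexes I to V had an SD of 3129 in E138A and 2346 in wild-type libraries at 1 month, and 561 and 412 at day 5. With only the libraries compared, 4 members were higher and 6 lower at 1 month. The counts over all tested genes in that fit are not given here. The 13 genes called higher at 1 month are 41.9% of the 31 called higher at day 5 and 100% of those called at 1 month. They were Ndufa4, Cox6a1, Cox6b1 and Cox8a of complex IV, Atp5mpl, Atp5g3, Atp5f1 and Atp5o of complex V, Ndufaf2, Ndufaf4 and Ndufaf5, Sdhd and Uqcrc2.

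**Figure D2:**
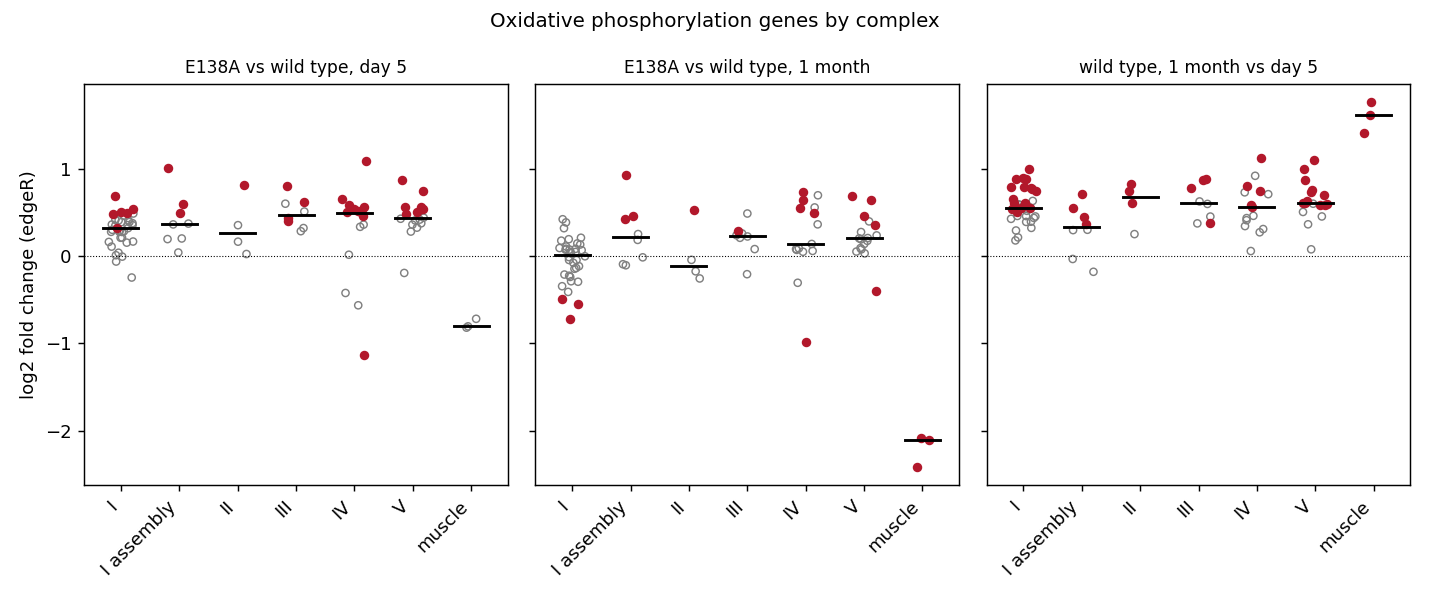
Log2 fold change (edgeR) of each tested member by complex in E138A against wild type at day 5 and at 1 month, and in wild type at 1 month against day 5. Filled points passed an adjusted p below 0.05, open points did not, and bars are medians of the group. At day 5 the medians of complexes I to V lie at 0.26 to 0.49, at 1 month at -0.11 to 0.23, and the muscle isoforms lie at -0.80 and -2.10.

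Ndufa4 was read at 158 to 249 CPM (median 189) in E138A and 89.2 to 175 CPM (median 113) in wild-type ears at 1 month. The groups overlapped through wild-type library 5, and the log2 fold change was 0.73 ± 0.14 (adjusted p = 1.1e-04). It was 0.74 among the 1-month libraries that over-read GC-rich genes and 0.83 among the others, and 0.49 with the GC and length offset. Atp5mpl had 57.6 to 92.0 CPM (median 64.1) in E138A and 31.0 to 58.6 CPM (median 43.7) in wild-type ears, which overlapped through wild-type library 5 (0.69 ± 0.14, adjusted p = 2.4e-04). Its values in the 2 sets of libraries were 0.75 and 0.74. Sdhd had 0.53 ± 0.16 (adjusted p = 0.008), Atp5g3 0.65 ± 0.18 (adjusted p = 0.004) and Ndufaf4 0.92 ± 0.24 (adjusted p = 0.0028). Cox6a1 had 0.64 ± 0.21 (adjusted p = 0.015) and Cox6b1 0.55 ± 0.19. Among the libraries that over-read GC-rich genes the values were 0.69 for Sdhd, 0.84 for Atp5g3, 0.55 for Ndufaf4, 0.87 for Cox6a1 and 0.77 for Cox6b1. Among the others they were 0.47 for Sdhd, 0.56 for Atp5g3, 0.92 for Ndufaf4, 0.55 for Cox6a1 and 0.43 for Cox6b1, and all 5 genes passed the test in both sets. The calls of Uqcrc2 (0.29 ± 0.12), Ndufaf5 (0.46 ± 0.17) and Cox8a (0.50 ± 0.17) were the least firm and held in 13, 19 and 20 of 24 fits that each left out 1 library.

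Members that fell at 1 month were, beside the muscle isoforms, Ndufa13, Ndufa6, Ndufv3, Cox4i2 and Atp5s. Ndufa13, a complex I subunit also known as GRIM-19, was read at 32.5 to 81.9 CPM (median 47.5) in E138A and 40.6 to 141 CPM (median 75.1) in wild-type ears, with a wide overlap of the groups (-0.73 ± 0.23, adjusted p = 0.013). At day 5 it had -0.06 ± 0.23 (adjusted p = 0.86). Ndufa6 had -0.55 ± 0.16 (adjusted p = 0.0075), Ndufv3 -0.49 ± 0.16 (adjusted p = 0.015) and Atp5s, a coupling factor of low level, -0.39 ± 0.12 (adjusted p = 0.011). Cox4i2 was read at 1.38 to 4.95 CPM (median 2.78) in E138A and 2.42 to 8.98 CPM (median 5.42) in wild-type ears and was the only member lower at both times (-0.98 ± 0.28, adjusted p = 0.0058). Among the libraries that over-read GC-rich genes Ndufa13 had -0.54, Ndufa6 -0.56 and Cox4i2 -0.80, which passed the test, and Ndufv3 -0.22 (adjusted p = 0.063) and Atp5s -0.32 (adjusted p = 0.12), which did not. Among the others Ndufa13 had -0.74, Ndufv3 -0.77, Cox4i2 -0.94 and Atp5s -0.55, which passed, and Ndufa6 -0.35 (adjusted p = 0.13), which did not. Skeletal muscle markers fell in all 18 of 18 genes at this time, with a median of -2.42. With their level as a covariate no member was lower at 1 month, 60 were higher, and Ndufa13 was at 0.57 and Cox4i2 at 0.35. The counts over all tested genes in that fit are not given here, so the 60 is not read as a result about the members. The summed muscle markers of the genotypes did not overlap at this time, and their parts in these falls cannot be told apart.

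The counts at 1 month turned on which libraries were read together. Leaving out E138A library 1 or 2 gave 7 members higher, leaving out wild-type library 1 gave 8, and leaving out wild-type library 5 gave 20. Among the 7 libraries that over-read GC-rich genes, 34 members were higher and 7 lower with a median of 0.25, and among the other 5, 16 were higher and 7 lower with a median of 0.04. Without the 3 libraries of a GC correlation above 0.4, which were E138A 1 and 6 and wild type 2, 5 were higher and 15 lower, with a median of -0.14. For these splits by GC correlation the counts over all tested genes are not given here. Limma voom with sample weights gave 7 higher and 48 lower with a median of -0.28. Of all 17287 tested genes it called 5660 higher and 5210 lower. With the GC and length offset 11 were higher and 20 lower with a median of -0.07. Of all tested genes 5152 were higher and 4624 lower with it. Complex I subunits made up 12 of the 20, and 3 of 36 (Ndufa13, Ndufa6 and Ndufv3) fell without the offset. The sign of the members' median at 1 month thus differed between these settings.

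**Figure D3:**
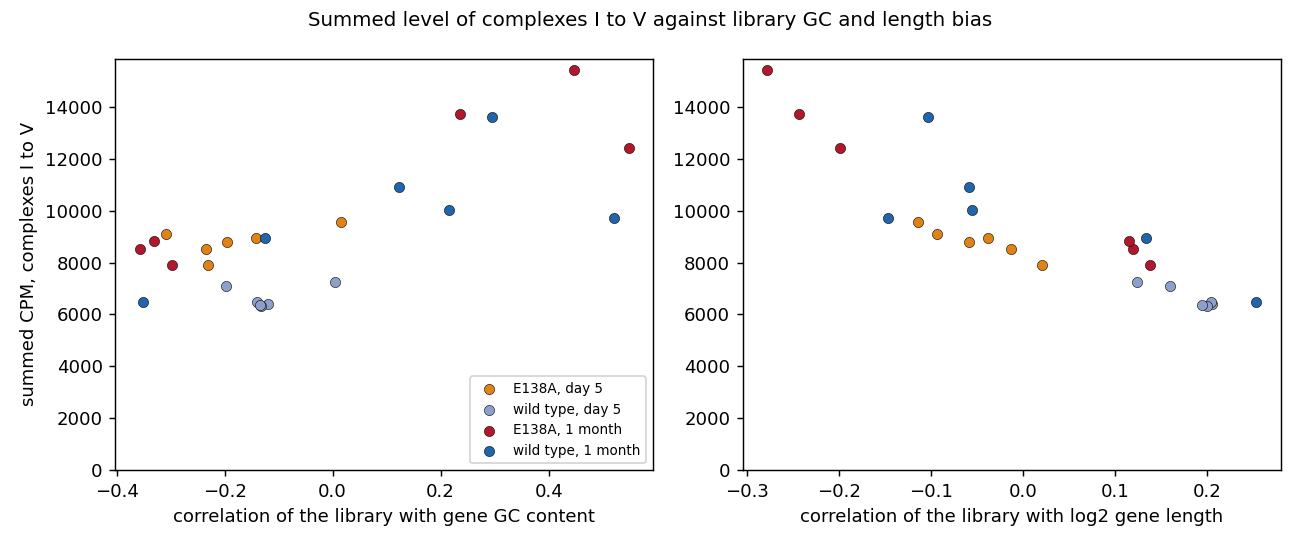
Summed CPM of the members of complexes I to V (without the muscle isoforms) in each library (vertical) against the correlation of that library's log2 deviation with gene GC content (left) and with log2 transcript length (right). At 1 month the E138A libraries 1, 2 and 6 sum to 12426 to 15408 CPM and the libraries 3, 4 and 5 to 7921 to 8841 CPM, and day 5 E138A libraries lie left of wild-type libraries in length correlation.

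Within E138A ears of 1 month the summed level of complexes I to V was 15408, 13723 and 12426 CPM in libraries 1, 2 and 6, and 7921, 8538 and 8841 CPM in libraries 3, 4 and 5. Wild-type libraries 2 to 5 summed to 9729, 10927, 10041 and 13610 CPM, and libraries 1 and 6 to 6475 and 8929 CPM. In both genotypes the libraries that over-read GC-rich genes held more of these transcripts. Transcripts of mitochondrial DNA went the other way, at 9505 to 12856 CPM in E138A libraries 1, 2 and 6 and 25774 to 41009 CPM in libraries 3, 4 and 5, and at 10469 to 23146 CPM in wild-type libraries 2 to 5 and 29865 to 36644 CPM in libraries 1 and 6. At day 5 the correlation with length was -0.115 to 0.0206 in E138A and 0.124 to 0.206 in wild-type libraries, groups that did not overlap, so that length bias and genotype cannot be told apart at that time. Of the tested genes that are not members, the quartile with the shortest transcripts had a median log2 fold change of 0.12 at day 5 and the quartile with the longest -0.14, and 81 of the 93 tested members are as short as the first of these quartiles.

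**Figure D4:**
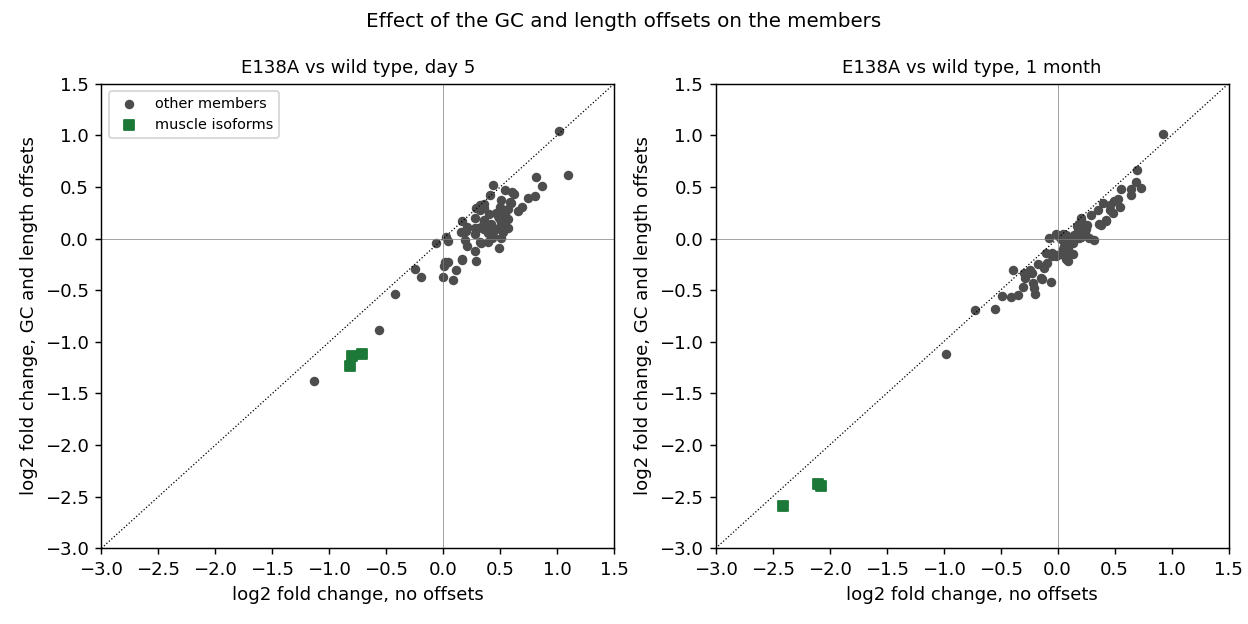
Log2 fold change of the 93 tested members with the GC and length offset (vertical) against the fit without it (horizontal), E138A against wild type at day 5 and 1 month, with the muscle isoforms as squares and the line of equal values dotted. At day 5 most members lie below the line and the median falls to 0.11, against 0.37 without the offset, and Ndufa4 lies at 0.62, against 1.09.

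The change of the mutant effect with time was tested as an interaction. It was below 0 in 88 of 93 members with a median of -0.29, beside 0.02 for all tested genes, and it passed the test in 1 member each way, where 4.68% of all tested genes were called higher and 4.09% lower (8.77% in all). The value was below 0 in 8322 of all 17287 tested genes. Among genes that are not members its median was -0.11 in the quartile with the shortest transcripts and 0.11 in that with the longest. Of the 93 tested members 81 are as short as the first of these quartiles. Ndufs4, an accessory complex I subunit, had 0.30 at day 5 and -0.29 at 1 month, a difference of -0.59 ± 0.18 (adjusted p = 0.045). Cox6b2, the testis isoform of Cox6b1, had -0.56 at day 5 and 0.56 at 1 month at a very low level, with 0.916 ± 0.187 CPM at day 5 and 2.08 ± 0.271 CPM at 1 month in E138A ears (difference 1.12 ± 0.35, adjusted p = 0.047). The call of Ndufs4 held in 12 and that of Cox6b2 in 4 of 24 fits that each left out 1 library. The next smallest adjusted p-values were those of the muscle isoform Cox6a2 (-1.60 ± 0.58, adjusted p = 0.095), Ndufa2 (-0.63 ± 0.26, adjusted p = 0.15) and Ndufa5 (-0.63 ± 0.26, adjusted p = 0.15), which did not pass. For Ndufa4 the difference was -0.36 ± 0.19 (adjusted p = 0.32).

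In wild-type ears members of every complex were called higher at 1 month than at day 5. Of 93 tested members 48 rose and 0 fell, where 6.28% of all tested genes were called higher and 2.81% lower (9.09% in all), and none passed an unadjusted p below 0.05 as lower. DESeq2 called 66 higher and 0 lower, and limma voom 86 higher and 1 lower. Of all 17287 tested genes DESeq2 called 1874 higher and 584 lower, and limma voom 3666 higher and 4553 lower. The median of the members in edgeR was 0.59, beside -0.03 for all tested genes. In 11 members every library of 1 month was above every library of day 5, as in 2.90% of all tested genes, and 2.16% of all tested genes were lower with no overlap. By complex, 17 of 36 complex I subunits, 3 of 4 complex II, 4 of 8 complex III, 5 of 15 complex IV and 12 of 17 complex V genes rose. Cox7c, a small complex IV subunit, was read at 47.9 to 89.6 CPM (median 83.3) at 1 month and 32.1 to 36.1 CPM (median 35.2) at day 5. The groups did not overlap (1.12 ± 0.16, adjusted p = 8.7e-05), and the value was 0.71 among the 1-month libraries that under-read GC-rich genes. Ndufab1 rose by 0.79 ± 0.12 (adjusted p = 2.1e-04), Uqcrh by 0.87 ± 0.16, Uqcrfs1 by 0.88 ± 0.17 and Atp5j by 0.61 ± 0.12 on the log2 scale. With only the 2 wild-type libraries of 1 month that under-read GC-rich genes, 8 members rose, and with the other 4, 85 rose. With the GC and length offset 37 rose, as did 1228 of all tested genes. Without wild-type 1-month library 1 the count was 76, and without wild-type day 5 library 4 it was 31. Of the 18 muscle markers 17 rose in the same comparison (median 1.52), and with muscle level as a covariate 2 members rose, Cox7c (0.72) and Ndufab1 (0.53). Muscle level in wild-type libraries was 7.89 to 8.38 at day 5 and 8.28 to 10.3 at 1 month. Only library 1 of 1 month lay in the range of day 5, so muscle level and time cannot be told apart in that fit. For it and the fits that left out libraries, the counts over all tested genes are not given here.

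The muscle isoforms of complex IV, which replace Cox6a1, Cox7a2 and Cox8a in striated muscle, moved apart from the other members. Cox6a2 was read at 4.98 to 30.5 CPM (median 11.4) in E138A and 25.8 to 180.1 CPM (median 57.7) in wild-type ears at 1 month, Cox7a1 at 1.76 to 13.2 CPM (median 4.93) in E138A and 11.03 to 50.8 CPM (median 24.6) in wild-type ears, and Cox8b at 2.30 to 20.04 CPM (median 5.07) in E138A and 10.7 to 69.5 CPM (median 29.6) in wild-type ears. The groups overlapped in each of the 3 genes, through wild-type library 1. The log2 fold changes were -2.41 ± 0.43 for Cox6a2 (adjusted p = 6.2e-05), -2.10 ± 0.40 for Cox7a1 (adjusted p = 1.3e-04) and -2.08 ± 0.46 for Cox8b (adjusted p = 5.9e-04). Among the libraries that over-read GC-rich genes they were -2.26, -1.86 and -1.76, and among the others -2.24, -2.20 and -2.32, in the same order of genes. At day 5 Cox6a2 was read at 9.09 to 28.7 CPM (median 12.9) in E138A and 23.5 to 34.8 CPM (median 26.4) in wild-type ears. The log2 fold changes at day 5 were -0.80, -0.82 and -0.72, and none passed the test, also with DESeq2 or at an unadjusted p below 0.05 (0 of 3 each), while limma voom and the fit with the GC and length offset each called 3 of 3 lower.

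Their level followed muscle markers across the 24 libraries. The genes whose log2 CPM was most like that of Cox6a2 were the fast troponins Tnnc2 (Pearson r 0.990) and Tnni2 (0.989) and the titin cap gene Tcap (0.985), those of Cox7a1 were Eno3, Jsrp1 and Rpl3l, and those of Cox8b were Mylpf, Des and Mb. These are descriptions over 24 libraries that share 4 groups. Cox6a2 stood at 5.89 to 10.7 CPM per 100 CPM of the muscle creatine kinase gene Ckm in E138A and 4.63 to 7.82 in wild-type ears at 1 month, and at 8.44 to 12.9 in E138A and 7.70 to 9.88 in wild-type ears at day 5. As a share of both isoforms per length, Cox6a2 made up 6.58 ± 2.70% in E138A and 34.5 ± 8.64% in wild-type ears at 1 month, and 10.2 ± 5.01% in E138A and 22.9 ± 1.73% in wild-type ears at day 5 (SD, n = 6 each). The E138A and wild-type shares did not overlap at either time. In wild-type ears all 3 isoforms rose between the times, Cox6a2 by 1.40 ± 0.41, Cox7a1 by 1.76 ± 0.40 and Cox8b by 1.61 ± 0.45. The call of Cox6a2 held in 18 of 24 fits that each left out 1 library and was lost without wild-type library 1, 2, 4 or 6 of day 5 or 3 or 5 of 1 month (adjusted p up to 0.128). That of Cox8b held in 20 of 24 and was lost without wild-type library 2, 4 or 6 of day 5 or 5 of 1 month (adjusted p up to 0.076), and that of Cox7a1 held in 24 of 24. With the GC and length offset Cox6a2 did not pass (0.99, adjusted p = 0.063), and Cox7a1 and Cox8b did.

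**Figure D5:**
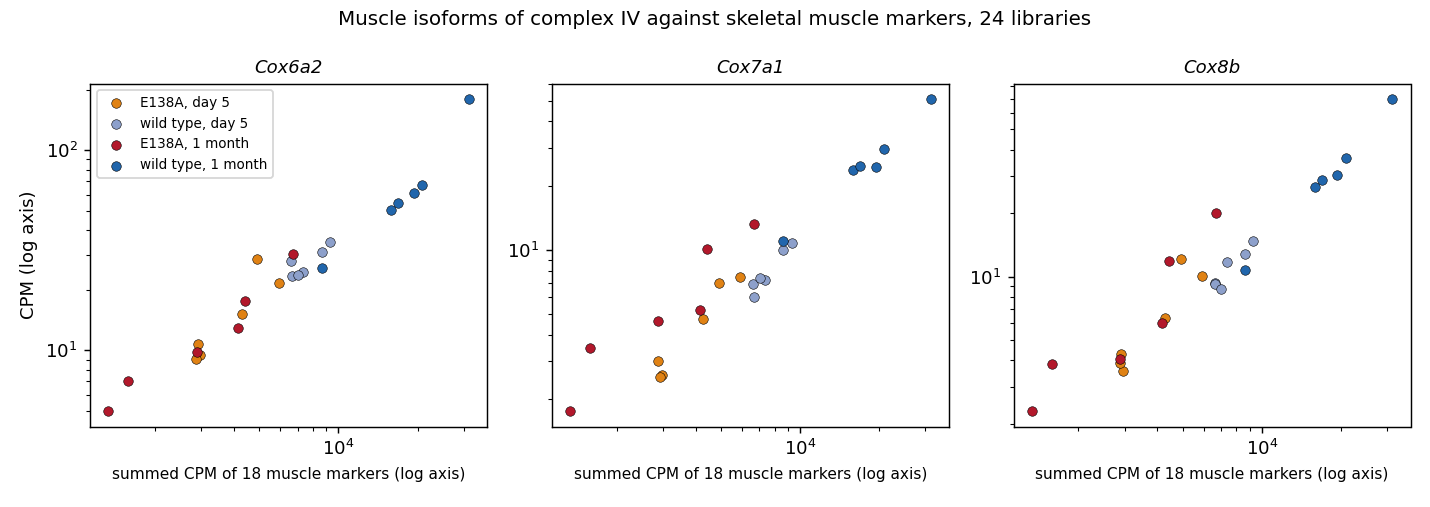
CPM of Cox6a2, Cox7a1 and Cox8b (log axis) against the summed CPM of 18 skeletal muscle markers (log axis) in 24 libraries, coloured by group. All 3 isoforms climb with the muscle markers, from E138A ears of 1 month at the low end to wild-type ears of 1 month at the high end, and wild-type library 5 of 1 month is highest in Cox6a2 at 180.1 CPM.

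Ndufa4l2, a partner of Ndufa4 known to be induced by low oxygen, was read at 8.07 to 34.3 CPM (median 11.3) in E138A and 21.8 to 26.7 CPM (median 22.5) in wild-type ears at day 5 and at 45.9 to 106 CPM (median 67.9) in E138A and 24.6 to 83.2 CPM (median 35.2) in wild-type ears at 1 month. Groups overlapped at both times, and neither time passed the test (adjusted p = 0.35 at day 5 and 0.097 at 1 month). Ndufb4 and the pseudogene row Ndufb4c, at 41.2 ± 3.10 CPM in E138A and 38.8 ± 2.99 CPM in wild-type ears at day 5, may share reads, so their levels are uncertain. Neither of the tested pseudogene rows, Ndufb4c (0.09 ± 0.24 at day 5) and Cox6c2 (0.49 ± 0.61), passed the edgeR test between genotypes.

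No change was called among the subunits encoded by mitochondrial DNA. None of 13 passed the test at day 5 or at 1 month in edgeR, none at an unadjusted p below 0.05, and none in DESeq2, while limma voom called 1 higher at day 5 and 3 at 1 month. Their medians were -0.01 and -0.13. The libraries were polyA-selected, and the summed level ranged over 9505 to 41009 CPM in E138A and 10469 to 36644 CPM in wild-type ears at 1 month. For mt-Nd2 the means at day 5 were 1302 ± 183 CPM in E138A and 1431 ± 207 CPM in wild-type ears (-0.14 ± 0.28).

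Of all tested genes 20.7% were called higher and 20.2% lower at day 5, and 25.5% higher and 21.5% lower at 1 month. Of 15 genes for cytochrome c, cytochrome c1 and coenzyme Q synthesis 4 rose (26.7%) and 1 fell (6.67%) at day 5, and 2 rose (13.3%) and 4 fell (26.7%) at 1 month. Cycs, somatic cytochrome c, rose at day 5 to 44.6 ± 8.53 CPM in E138A, against 28.6 ± 3.74 CPM in wild-type ears (0.64 ± 0.16, adjusted p = 0.0019). Pdss1, which starts the coenzyme Q tail, was at 18.6 ± 7.05 CPM in E138A and 6.08 ± 2.90 CPM in wild-type ears at 1 month (1.61 ± 0.29, adjusted p = 8.0e-05), and the coenzyme Q genes Coq8a (-1.86 ± 0.28) and Coq10a (-1.32 ± 0.20) fell. Of 33 assembly factors of complexes II to V 8 rose (24.2%) and 1 fell (3.03%) at day 5 and 6 rose (18.2%) and 3 fell (9.09%) at 1 month, among them Cox10, a heme A synthesis enzyme, with 0.77 ± 0.17 at day 5 (adjusted p = 8.5e-04).

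In the citric acid cycle 4 of 18 genes rose at day 5 (22.2%, against 20.7% of all tested genes), and 1 rose (5.56%) and 5 fell (27.8%, against 21.5% of all tested genes) at 1 month. Suclg2, a subunit of succinyl-CoA synthetase, rose at both times (0.43 ± 0.07 and 0.27 ± 0.07). Of 16 fatty acid oxidation genes 1 rose and 1 fell at day 5 (6.25% each, against 20.7% and 20.2% of all tested genes). At 1 month 4 fell (25%, against 21.5% of all tested genes). Cpt1b, the muscle carnitine palmitoyltransferase, had -2.18 ± 0.28 at 1 month (adjusted p = 1.1e-06), and Acadm fell at both times (-0.55 ± 0.13 and -0.97 ± 0.13).

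The adenine nucleotide carriers, which exchange ADP for ATP across the inner membrane, split by isoform. Slc25a5, the form of dividing and epithelial cells, was at 521 ± 82.4 CPM in E138A and 276 ± 12.9 CPM in wild-type ears at day 5 (0.92 ± 0.13, adjusted p = 5.3e-06), and at 649.9 ± 147 CPM in E138A and 280.0 ± 22.8 CPM in wild-type ears at 1 month (1.21 ± 0.13, adjusted p = 7.4e-08). Slc25a4, the form of heart and muscle, fell at 1 month, with 195 ± 56.4 CPM in E138A and 569 ± 257 CPM in wild-type ears (-1.54 ± 0.23, adjusted p = 5.2e-06). Ucp3, a muscle uncoupling protein, fell too (-2.61 ± 0.32), and Ckmt1, mitochondrial creatine kinase, rose at both times (0.59 ± 0.16 and 1.07 ± 0.16).

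Among 20 regulators of mitochondrial biogenesis 5 rose (25%) and 4 fell (20%) at day 5, and 5 rose (25%) and 6 fell (30%) at 1 month, shares near those of all tested genes. The coactivators of the PGC-1 family parted. Ppargc1b was read at 13.6 to 21.5 CPM (median 18.5) in E138A and 5.42 to 7.0 CPM (median 6.27) in wild-type ears at day 5, groups that did not overlap (1.54 ± 0.12, adjusted p = 1.6e-09), and its value at 1 month was 1.27 ± 0.12. Pprc1 had 0.96 ± 0.14 at day 5 and 1.04 ± 0.14 at 1 month, and both passed the test. Ppargc1a, the form of muscle and brown fat, was at 3.41 ± 2.20 CPM in E138A and 9.92 ± 3.89 CPM in wild-type ears at 1 month (-1.54 ± 0.40, adjusted p = 0.0026) and was lower at day 5 too (-1.11 ± 0.40). Ppara fell at both times (-0.63 ± 0.12 and -1.40 ± 0.12). Of 13 genes of the hypoxia response 6 rose at day 5 (46.2%, against 20.7% of all tested genes). At 1 month 6 rose (46.2%) and 1 fell (7.69%), against 25.5% and 21.5% of all tested genes. Slc2a1, the glucose transporter GLUT1, was at 0.96 ± 0.21 at day 5 and 1.19 ± 0.21 at 1 month.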

How the data were processed

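Per the labels' protocols, polyA RNA of whole ears was sequenced as single-end reads. The authors deposited a table of expected counts for Ensembl genes, made with RSEM 1.3.0 and STAR 2.5.2 on GRCm38, with DESeq2 1.14.1 also named, per the submitters' processing notes. No source used here gives the gene annotation behind it. Values were rounded to whole numbers, since 6.71% had decimals. GENCODE M21 (GRCm38) gave symbols, coordinates, lengths and GC content. It held 51719 of the identifiers and lacked 193.

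Counts were fitted in R 4.3.3 with edgeR 4.0.16: filterByExpr by group (17287 genes kept), TMM factors, 1 coefficient per group over all 24 libraries, robust quasi-likelihood F tests (two-sided), Benjamini-Hochberg adjustment over all tested genes and calls at 0.05. Standard errors (SE) are the absolute log2 fold change over the root of F. Levels are CPM on TMM library sizes, with a prior count of 2 for log2 CPM. The GC and length offset is, per library, a natural spline with 5 degrees of freedom in GC content and in log2 length, fitted on tested genes outside the list. The GC and length correlations of a library are those of its deviation from the mean log2 CPM of all libraries.

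The members, marker lists and alternatives were chosen with earlier results of these data known. Named genes were the muscle and conditional isoforms with their partners and the complex II genes. To these were added, in each genotype comparison, the 3 members of each other complex with the smallest adjusted p and the 5 called members with the largest absolute log2 fold change. For the difference of effects and the time comparison they were the 5 members with the smallest adjusted p, of each other list up to 4 genes with the smallest adjusted p over both genotype comparisons, and for each muscle isoform the 3 genes with the highest Pearson correlation of log2 CPM. Other members called or set beside a called subunit, and the genes with the highest level per length, were named after their values were seen. The smallest chi-square per degree of freedom between libraries of a group was 4.86, so no library was counted as a repeat reading of another. That check cannot tell whether separate libraries came from the same mouse. Alternatives were DESeq2 1.42.0, limma 3.58.1 voom with sample weights, RLE and total-count scaling, other filters, a fit without robust estimation, a fit to only the libraries compared, GC and length offsets, GC correlation or muscle marker level as covariate, the replicate number as block, protein-coding genes only, leaving out libraries by GC correlation, and leaving out each of 24 libraries. Those that part 1-month libraries by the sign of their GC correlation, or join muscle level and offsets, were chosen after seeing the data. The code was tested on simulated data.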

Additional observations from a re-analysis of the deposited data

Results flagged for a closer look

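Of 184 groups of 6 libraries tested for a library far from the others, 8 had one, and chance gives about 1 in 20. Wild-type library 5 of 1 month had Cox6a2 at 180.1 CPM, where the other 5 lay at 25.8 to 67.1 CPM, a summed muscle isoform level of 300.4 CPM, where the others lay at 47.6 to 133.4 CPM, and a summed level of complex I assembly factors of 107.6 CPM, where the others lay at 80.4 to 86.3 CPM. E138A library 1 of day 5 was the highest in Ndufa1 (48.1 CPM, others 34.7 to 39.4), Ndufa6 (67.6 CPM, others 39.5 to 49.6), Cox7c (58.0 CPM, others 45.9 to 50.3) and Uqcrh (144.8 CPM, others 93.6 to 105.7). Wild-type library 5 of day 5 had Ndufa4l2 at 26.7 CPM, where the others lay at 21.8 to 23.3 CPM. The mutant effect differed between 1 month and day 5 in Ndufs4 (-0.59 on the log2 scale) and in Cox6b2 (1.12), by the interaction test.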

How the results depend on the processing

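Of the 31 members higher and 1 lower at day 5, the counts were 71 and 7 with limma voom, 71 and 5 with only the libraries compared, 19 and 7 with the GC and length offset, 66 higher with GC correlation as a covariate, 72 and 0 with muscle level, 52 and 2 with muscle level and offset, 67 and 5 without the 1-month libraries of a GC correlation above 0, 63 and 4 without those below 0, and 59 and 3 with its sign as a block. The 13 higher and 8 lower at 1 month became 7 and 48 with voom, 4 higher with only the libraries compared, 20 lower with the offset, 27 higher with GC correlation as a covariate, 5 and 15 without libraries above 0.4, 60 and 0 with muscle level, 38 and 0 with muscle level and offset, 34 higher without libraries below 0 and 34 higher with the sign as a block. The 48 higher with time in wild type became 86 (and 1 lower) with voom, 2 with muscle level, with or without offset, 8 without libraries above 0, 85 (and 1 lower) without those below 0, and 6 with the sign as a block. For the difference of effects, 1 higher and 1 lower, the higher count was 0 with RLE factors, total counts, either other filter, protein-coding genes, muscle level, muscle level and offset, and without libraries below 0, and 2 with the sign as a block. The lower count was 0 with no filter, muscle level, or muscle level and offset, 2 with DESeq2 or the offset, 80 with voom, 10 with the GC covariate and 4 without libraries above 0.4. Only the libraries compared gave no value for it. Without 1 library at a time the counts were 24 to 39 higher and 1 to 2 lower at day 5, 7 to 20 and 8 to 12 at 1 month, 0 to 1 and 0 to 5 for the difference, and 31 to 76 and 0 to 0 with time. The cause was not tested. These counts stand without those of all tested genes, some of which are given above for voom and the offset. The muscle marker level of the genotypes did not overlap at either time, so its part and that of genotype cannot be told apart. In wild type only library 1 of 1 month lay in the range of day 5, so its part and that of time cannot be told apart.

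The replicate numbers did not pair the samples: correlations between same-numbered libraries were -0.73 to 0.26, and 1 of 24 libraries was most like its own number. With the replicate block the counts were 26 and 1 at day 5, 10 and 8 at 1 month, 30 higher with time and 0 and 0 for the difference, and with the block and the offset 17 and 7, 11 and 18, 31 higher, and 1 and 0.

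Some log2 fold changes reversed. With muscle level as a covariate the values at 1 month were 0.56 for Cox6a2, 0.71 for Cox7a1, 1.05 for Cox8b, 0.35 for Cox4i2, 1.06 for Sdhb, 0.38 for Ndufa6, 0.57 for Ndufa13 and 0.12 for Ndufv3, and those with time in wild type were -0.29 for Cox6a2 and -0.20 for Cox8b. With muscle level and offset they were 0.23 for Cox8b, 0.56 for Sdhb, 0.79 for Sdhc, 0.070 for Ndufa13 and 0.044 for Atp5s at 1 month, and -0.42 for Cox6a2 and -0.00055 for Cox8b with time. Voom gave -0.56 for Cox4i1 at 1 month, and -0.59 for Cox6a1 and -0.35 for Cox8a for the difference. Ndufa4 kept its call at both times in all 19 other settings and all 24 fits without 1 library, and Sdhd, Atp5mpl, Atp5g3, Ndufaf4, Uqcr10, Uqcrfs1 and Cox6b1 kept theirs at day 5.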
